A study of Rattus norvegicus with 4 samples.

Results

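Amino acids cross cell membranes through solute carriers, and 7 families of these carriers (SLC1, SLC3, SLC6, SLC7, SLC36, SLC38 and SLC43) are described here in the cultured rat ovary. Members were all genes of these families with a probe set that the platform annotation assigns to that 1 symbol, 53 genes of 14218 on the array, each read at its brightest probe set (highest mean of the 4 arrays). The 53 genes had 72 probe sets between them. Ovaries of female rats of postnatal day 4 were kept in culture for 10 days, either untreated (control) or treated with AMH at 50 ng/mL; AMH, anti-Müllerian hormone, belongs to the TGF-beta family and is made by granulosa cells of growing follicles. Both groups shared a DMEM-based medium with albumin, Albumax, transferrin, insulin and ascorbic acid. About 10 equally treated ovaries made up each RNA pool, and 2 independent pools per group went onto 1 Affymetrix array each. The labels name no strain. The ovaries were whole organs, so that every value is a mixture of oocytes, granulosa cells, stroma and other cells.

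Carriers of these families differ in what they move and in how they are driven. SLC1 carriers take up glutamate or exchange small neutral amino acids with sodium, SLC6 carriers use sodium and chloride for glycine, taurine, proline, creatine and neurotransmitters, and SLC38 carriers take up glutamine and alanine or release them from lysosomes. SLC7 light chains need a heavy chain of the SLC3 family to reach the membrane, apart from the cationic amino acid transporters of the same family, which work alone. In the ovary, oocytes depend in part on amino acids handed over by granulosa cells through gap junctions, and the oocyte itself carries the glycine transporter GLYT1, the product of Slc6a9.

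Of the 53 genes, 32 were bright enough to be tested and 21 were not. AMH was compared with control by limma on log2(intensity + 16), and a gene was called when its p, adjusted by Benjamini-Hochberg over all 18625 tested probe sets, was under 0.05. By this rule 4 transporter genes rose with AMH (Slc38a2, Slc7a6, Slc7a1 and Slc1a3) and 3 fell (Slc6a9, Slc38a7 and Slc6a4), while 25 did not pass. The share called, 21.9%, lay beside 23.0% of all 10622 tested genes, with 12.5% of the transporters against 11.1% of all genes higher and 9.38% against 11.9% lower. The median difference was 0.21 over the tested transporters (quartiles -0.28 and 0.47) and 0.07 over all tested genes (quartiles -0.31 and 0.40). The groups did not overlap for 19 of the 32 transporters, against 64.6% of all tested genes. Over single probe sets the shares called were 8.67% higher, 12.8% lower and 21.5% in all. As a set, the transporters were called about as often as the array as a whole. Family medians were 0.09 in SLC1, 0.56 in SLC3, -0.33 in SLC6, 0.23 in SLC7, 0.28 in SLC38 and -0.12 in SLC43, and under the hybridization control scaling described below those of SLC1, SLC7 and SLC38 turned to -0.38, -0.28 and -0.15, whereas SLC3 was left at 0.06. Single arrays moved them too: SLC1 was -0.14 without control replicate 1, SLC3 was 0.19 without control replicate 1 and 0.92 without control replicate 2, SLC7 was -0.18 without AMH replicate 1 and SLC43 was 0.07 without AMH replicate 1. Without control replicate 2 SLC1 was 0.33, and without AMH replicate 1 it was 0.23 and SLC6 was -0.60. Without AMH replicate 2 SLC7 was 0.45 and SLC43 was -0.30, while SLC43 was -0.21 without control replicate 1 and -0.03 without control replicate 2. The family medians are therefore given as a description of these 4 arrays.

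**Figure D1:**
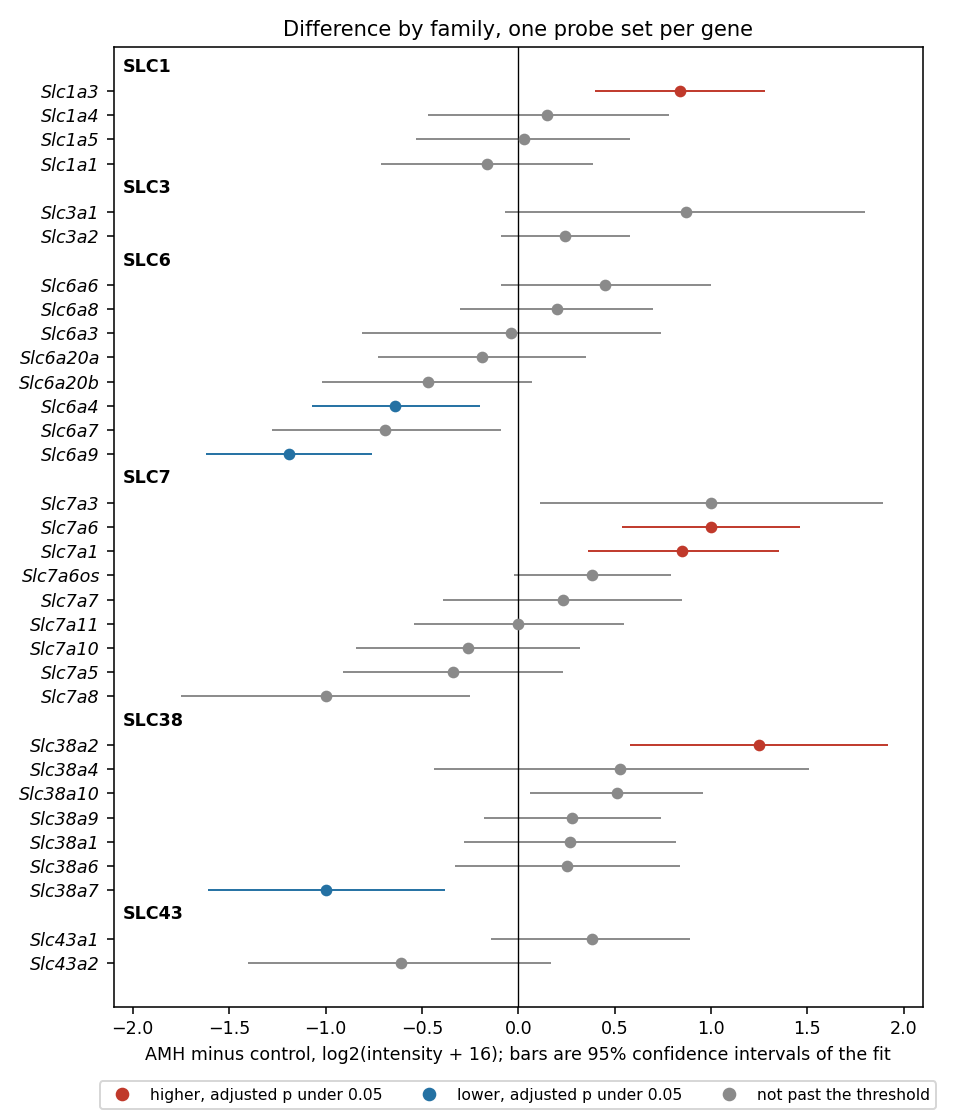
Difference, AMH minus control, in log2(intensity + 16) for the 32 tested genes, grouped by family (vertical axis), with 95% confidence intervals of the limma fit (2 arrays per group). The 4 genes in red rose and the 3 in blue fell at an adjusted p under 0.05, from 1.25 for Slc38a2 to -1.19 for Slc6a9, and the 25 in grey did not pass.

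All 4 arrays had the same trimmed mean intensity (125.0), so the deposited values set the average change to near 0. For GAPDH, the control probe sets at the 3′ end read 1.17 and 1.27 times those at the 5′ end in control and 6.56 and 6.37 times with AMH; this ratio is larger where RNA or its labelled copy is shorter. A run string in the chip names differs between the groups, so that run and group cannot be told apart. With the arrays scaled to 18 hybridization control probe sets, whose material is spiked in and does not come from the ovary, the median of all tested probe sets moved from 0.02 to -0.46, and 0 transporter genes were called higher and 7 of 32 lower. Under this scaling 0.655% of all tested probe sets were higher and 31.9% lower, which is the background for every count given with it below. These shares are over probe sets, whereas the counts are of genes at their brightest probe set. Shares over genes were not computed under this scaling. The part of RNA quality, of the run and of the scaling in the differences below was not tested further. In whole organs, fewer cells of a type and less RNA per cell cannot be told apart.

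The promoters of 3 members are shown, namely the gene with the largest rise, another riser that holds both motifs searched, and the gene with the largest fall. Each is the stretch of 250 bases before the RefSeq start of the gene in build GRCr8, on the gene's own strand and 5′ to 3′. Slc38a2 lies at chr7:129742620-129742869 on the minus strand, Slc7a1 at chr12:11664238-11664487 on the plus strand and Slc6a9 at chr5:136659826-136660075 on the plus strand. Capitals mark a match on either strand to TGATGNAA, the core of the element through which ATF4 acts in amino acid shortage, or to GGCGCC, the core of the BMP response element bound by SMADs.
Slc38a2: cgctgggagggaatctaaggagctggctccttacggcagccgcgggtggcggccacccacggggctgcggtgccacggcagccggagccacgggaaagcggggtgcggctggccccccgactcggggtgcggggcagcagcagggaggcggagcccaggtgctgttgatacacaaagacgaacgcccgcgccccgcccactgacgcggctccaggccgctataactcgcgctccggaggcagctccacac
Slc7a1: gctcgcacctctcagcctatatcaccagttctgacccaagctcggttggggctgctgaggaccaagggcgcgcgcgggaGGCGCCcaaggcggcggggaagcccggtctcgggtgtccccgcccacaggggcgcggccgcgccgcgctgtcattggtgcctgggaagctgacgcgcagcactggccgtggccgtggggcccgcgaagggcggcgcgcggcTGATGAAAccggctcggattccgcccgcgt
Slc6a9: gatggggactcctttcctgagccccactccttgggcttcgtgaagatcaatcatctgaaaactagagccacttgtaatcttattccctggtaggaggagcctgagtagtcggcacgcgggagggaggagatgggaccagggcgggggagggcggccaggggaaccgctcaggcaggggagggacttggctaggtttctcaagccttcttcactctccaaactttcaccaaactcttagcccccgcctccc

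In Slc7a1 the match TGATGAAA began 30 bases before the start and GGCGCC began 171 bases before it. The windows of Slc38a2 and Slc6a9 held neither. Sequence outside the windows, such as that after the start or in introns, was not searched, so a site there would be missed. Of the 53 genes 41 matched a promoter in the RefSeq table, with 46 windows. TGATGNAA was in 3 of these windows (Slc1a4, Slc38a1 and Slc7a1) and in 3.4% of all 33469 windows, and GGCGCC was in 5 (Slc6a11, Slc6a17, Slc6a20a, Slc6a3 and Slc7a1) and in 8.69% of all windows. The 2 motifs do not overlap each other in Slc7a1. The guanine and cytosine content of the windows was 72.4% for Slc38a2, 73.2% for Slc7a1 and 58.4% for Slc6a9.

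Within SLC38, the family of sodium-coupled glutamine and alanine carriers, 1 of 7 tested genes rose, 1 fell and 5 did not pass (0 higher and 1 lower with hybridization control scaling). Slc38a2 encodes SNAT2, which takes up small neutral amino acids and is known for its induction when amino acids run short. Control pools read 807.0 and 727.1, AMH pools 2663.1 and 1275.7. Both AMH arrays lay above both control arrays, and they were far from each other. The rise was 1.25 ± 0.29 on the log2 scale (SE of the fit, n = 2 arrays per group), or 2.38-fold, with a limma adjusted p of 0.0205. It was 0.72 without AMH replicate 1 and 1.78 without AMH replicate 2, both past the threshold, and 0.70 with hybridization control scaling, which was not (adjusted p = 0.0753). Over all alternatives the adjusted p of Slc38a2 ran from 2.69e-05 to 0.0753. On the same arrays 3 of 10 tested granulosa markers were higher (Amhr2, Inhbb and Wnt4) and 0 lower. In the reported fit 11.1% of all tested genes were higher and 11.9% lower, the background for every marker count here and below. The granulosa markers had a summed intensity of 3750 and 3418 in control and 7507 and 5238 with AMH. AMH replicate 1 was thus the highest both for Slc38a2 and for the sum of the granulosa markers. With hybridization control scaling 1 of 9 was higher (Inhbb) and their median went from 0.40 to -0.10, and the call of Amhr2 was lost in 7 of 13 alternatives. Within the granulosa sum the widest gaps between the AMH arrays were those of Inha (1930.6 and 566.2) and Inhbb (1473.9 and 707.5). Fst, Nr5a2 and Cyp19a1 also read higher on AMH replicate 1, whereas Amh, Amhr2, Foxl2, Kitlg and Wnt4 read higher on AMH replicate 2. The part of granulosa content in the rises was not tested.

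Slc38a7, which encodes SNAT7, a glutamine exporter of the lysosome, went the other way. It read 58.9 and 44.2 in control and 14.8 and 20.8 with AMH, without overlap. The fall was -1.0 ± 0.27, or 1.99-fold (limma adjusted p = 0.0330). Its AMH values lay below 27.8, the intensity that the filter on dim probe sets corresponds to, so its size depends on the constant added: it was -0.50 with 64 and -1.49 with 1. The call was lost with no filter (adjusted p = 0.0779), without control replicate 1 (0.256), without control replicate 2 (0.0896) and without AMH replicate 1 (0.0502), and the range of adjusted p was 0.00408 to 0.256.

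The other SLC38 genes did not pass. Slc38a9, the lysosomal arginine sensor that signals to mTORC1, read 73.9 and 76.4 in control and 92.7 and 96.2 with AMH. Its groups did not overlap, yet the difference of 0.28 ± 0.20 had an adjusted p of 0.357 in limma and an interval from -0.18 to 0.74. Slc38a10 gave 0.51 ± 0.20 (293.2 and 301.7 in control, 360.3 and 515.8 with AMH, limma adjusted p = 0.0982) and passed without AMH replicate 1 (0.76, adjusted p = 0.00849), while it was -0.02 with hybridization control scaling. For Slc38a4, which encodes SNAT4, a single AMH array stood apart: the control arrays read 60.1 and 79.6, the AMH arrays 191.7 and 57.5. Its difference was 0.53 ± 0.43, and it was -0.21 without AMH replicate 1 and 1.28 without AMH replicate 2, the latter past the threshold (limma adjusted p = 0.00388). The summed intensity of theca and interstitial markers, 0 of 4 tested called, was 541 and 415 in control and 2401 and 542 with AMH. It was highest on the same array, where Hsd3b1 alone read 1840.3 and Star 382.9. Lhcgr was higher on both AMH arrays (58.4 and 40.6, against 32.3 and 22.6 in control). Its difference of 0.59 ± 0.27 did not pass, and its control mean of 27.45 lay just below the filter level of 27.8. Nr5a1 (119.9 and 85.5 in control, 76.7 and 74.1 with AMH) and Insl3 were lower on both AMH arrays. The part of theca content was not tested. Slc38a1, the gene of SNAT1, gave 0.27 ± 0.24 and Slc38a6 gave 0.25 ± 0.26. Slc38a3 and Slc38a5 were too dim to be tested, with means of 8.075 and 22.35 over the 4 arrays. In the RefSeq gene order of GRCr8, Slc38a1, Slc38a2 and Slc38a4 are direct neighbours on chromosome 7, and Slc38a2 was the 1 called.

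SLC7 holds the light chains of the heteromeric exchangers and the cationic amino acid transporters, and 2 of its 9 tested genes rose while 7 did not pass (0 higher and 1 lower with hybridization control scaling). Slc7a6 encodes y+LAT2, a light chain that exchanges arginine for glutamine. It read 145.5 and 150.5 in control and 368.1 and 263.1 with AMH, so that the lower AMH array was well above both control arrays. The rise was 1.00 ± 0.20, or 2.00-fold (limma adjusted p = 0.0116). The call was lost without control replicate 1 (0.98, adjusted p = 0.0561) and with hybridization control scaling (0.48, adjusted p = 0.13), while over all alternatives its adjusted p ran from 0.0013 to 0.13. Slc7a6os, the neighbouring gene that the symbol rule also matches, is not a carrier. It read 193.6 and 235.4 in control and 297.1 and 270.6 with AMH, and gave 0.38 ± 0.18 (adjusted p = 0.159 in limma).

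Slc7a1 encodes CAT1, the main uptake route for arginine and lysine in many cells. Its brightest probe set read 85 and 97.5 in control and 208.9 and 150.4 with AMH, a rise of 0.85 ± 0.22 (1.81-fold, limma adjusted p = 0.0266). A second tested probe set of the gene gave -0.39 ± 0.32 (69.8 and 151.2 in control, 88.0 and 64.3 with AMH, not past the threshold). The mean over both was 0.23, with a limma adjusted p of 0.561, so the rise of Slc7a1 rests on 1 of its probe sets. It was also lost with no filter (0.051), without control replicate 1 (0.156), without control replicate 2 (0.0702), without AMH replicate 1 (0.0591) and with hybridization control scaling (0.258), and over all alternatives the adjusted p ran from 0.00567 to 0.561.

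Slc7a3, the gene of the related transporter CAT3, was higher on both AMH arrays (73.8 and 35.5) than on either control array (30.6 and 8.8). Its difference of 1.00 ± 0.39 did not pass (limma adjusted p = 0.101). It was 0.55 without control replicate 2 and 0.60 without AMH replicate 1, but 1.46 without control replicate 1 and 1.40 without AMH replicate 2, both past the threshold. With the replicate number as a block it passed as well (adjusted p = 0.0394). Its control mean of 19.7 lay below the filter level of 27.8, so that it was tested only through its AMH values, and its difference was 0.50 with 64 added and 1.57 with 1 added.

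The heavy chains that carry SLC7 light chains to the membrane did not pass. Slc3a2, which encodes 4F2hc (CD98), the partner of most light chains, read 529.5 and 555.6 in control and 661.8 and 629.5 with AMH. The groups did not overlap, but the difference was small, 0.24 ± 0.15, with an interval from -0.09 to 0.58 (limma adjusted p = 0.267). Slc3a1, which encodes rBAT, the partner of the cystine light chain, read 26.3 and 94.1 in control and 92.1 and 127.7 with AMH. Its difference of 0.87 ± 0.41 hung on the control arrays, with 0.18 left without control replicate 1 and 1.56 without control replicate 2, past the threshold in limma (adjusted p = 0.00878). Slc7a9, the cystine light chain itself, was too dim to be tested (22 and 36.7 in control, 9.5 and 14.3 with AMH).

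Of the light chains that pair with Slc3a2, Slc7a6 was the only one called here. Slc7a8, which encodes LAT2, read 60.5 and 43.2 in control and 9.5 and 28.4 with AMH. Both AMH arrays were lower, but the difference of -1.0 ± 0.33 narrowly missed the threshold (limma adjusted p = 0.0634) and passed without AMH replicate 2 (-1.40) and with hybridization control scaling (-1.34). Its AMH mean of 18.95 lay below the filter level, and the difference was -0.49 with 64 added and -1.57 with 1 added. Slc7a5, the gene of LAT1, a leucine importer of growing cells, read 56.2 and 41.0 in control and 34.0 and 35.4 with AMH, a difference of -0.34 ± 0.25 with an interval from -0.91 to 0.23. Slc7a11, the cystine importer xCT that supplies glutathione synthesis, read 64.5 and 82.8 in control and 85.4 and 62.9 with AMH. Its difference was 0.00 ± 0.24 with an interval from -0.54 to 0.55, and the groups overlapped fully. Slc7a7, the gene of y+LAT1, gave 0.23 ± 0.27 (131.4 and 133.8 in control, 215.6 and 114.9 with AMH) and passed without AMH replicate 2 (0.64, limma adjusted p = 0.0373), whereas it was -0.18 without AMH replicate 1. Slc7a10, an exchanger of small neutral amino acids, gave -0.26 ± 0.25 (32.6 and 39.7 in control, 27.2 and 27.5 with AMH).

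**Figure D2:**
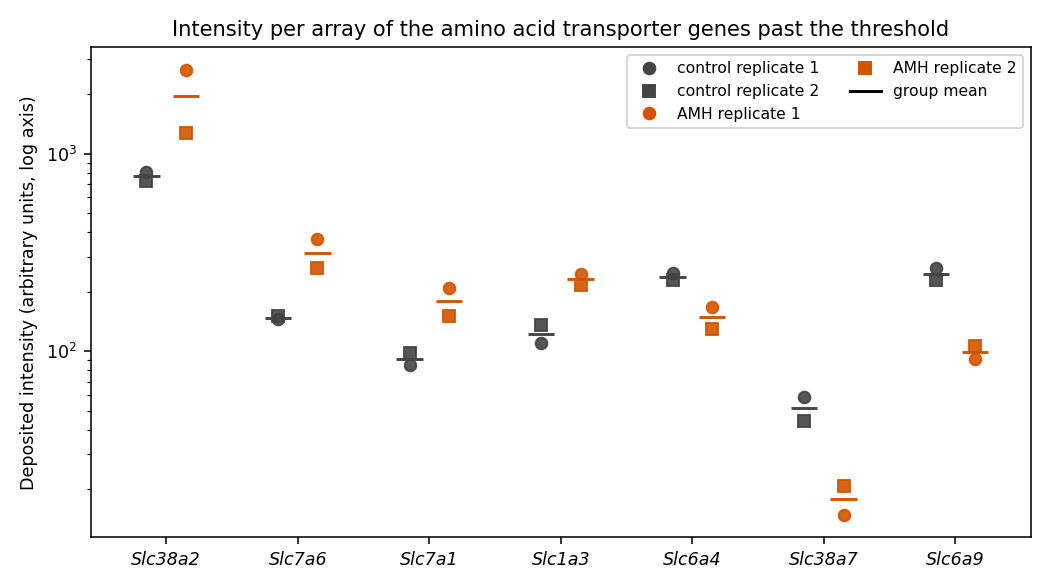
Deposited intensity (log axis, arbitrary units) of the 7 called transporter genes on each of the 4 arrays, with circles for replicate 1, squares for replicate 2 and bars for the group means. Control and AMH arrays did not overlap for any of the 7, nor for 64.6% of all tested genes. The 7 were picked by their calls on these same arrays, so this adds no support to the calls. The AMH arrays lay farthest apart for Slc38a2 (2663.1 and 1275.7).

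Among the 4 tested SLC1 genes 1 rose and 3 did not pass (0 called with hybridization control scaling). Slc1a3 encodes GLAST, an importer of glutamate and aspartate. Its brightest probe set read 109.7 and 136.0 in control and 246.9 and 215.7 with AMH, without overlap. This rise of 0.84 ± 0.19 was 1.79-fold (limma adjusted p = 0.0187), and it was lost without control replicate 1 (0.70, adjusted p = 0.167) and with hybridization control scaling (0.33, adjusted p = 0.291). The other probe sets of Slc1a3 were dimmer and gave 0.24 ± 0.27 and -0.17 ± 0.26, and the mean over all 3 did not pass (0.30, limma adjusted p = 0.334). Over all alternatives the adjusted p of Slc1a3 ran from 0.0103 to 0.334.

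Slc1a5, the gene of the glutamine exchanger ASCT2, read 107.3 and 131.0 in control and 96.1 and 152.2 with AMH. The groups overlapped, and the difference was 0.03 ± 0.24. Slc1a4, which encodes the related alanine and serine exchanger ASCT1, gave 0.15 ± 0.27, and Slc1a1, a carrier of glutamate and cysteine, gave -0.16 ± 0.24. The glutamate carrier genes Slc1a2 and Slc1a6, best known from the brain, were too dim to be tested, with array means of 9.95 and 7.65.

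SLC6 had 16 genes on the array, of which 8 were tested, 2 fell and 0 rose. With hybridization control scaling 4 of the 8 were lower, and with quantile normalization or median centring 1 was. Slc6a9, the gene of GLYT1, read 262.6 and 229.8 in control and 91.4 and 106.0 with AMH, with tight replicates and a wide gap between the groups. It fell by 1.19 ± 0.19 on the log2 scale (2.29-fold, limma adjusted p = 0.00466). A dimmer tested probe set gave -0.66 ± 0.25 (100.9 and 78.7 in control, 62.8 and 40.2 with AMH, adjusted p = 0.0977 in limma), and another, too dim to be tested, read 37.7 and 51.8 in control and 5.0 and 7.5 with AMH. Slc6a9 was called lower in all 14 alternatives, between -1.69 and -0.93, with an adjusted p from 0.000444 to 0.0394. It was the only one of the 7 called transporters to pass in each alternative run here.

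Markers of the oocyte moved on the same arrays. Of 11 listed, 8 had a probe set and all 8 were tested. Of these 5 were lower (Gdf9, Bmp15, Ooep, Sohlh1 and Kit) and 0 higher, beside 11.9% lower and 11.1% higher of all tested genes. The median of the 8 was -1.06. That median ran from -0.50 with a stricter filter, which left 6 of them, and -0.57 with quantile normalization to -1.5 with hybridization control scaling. Without control replicate 1 the lower ones were 3, the call of Ooep was lost in 6 of 13 alternatives, and Bmp15 and Kit had AMH means (22.45 and 11.4) below the filter level. Their summed intensity was 10450 and 9788 in control and 7375 and 7744 with AMH, and the lowest reading of any of them was 3.9 (Kit, AMH replicate 2). Among those not called, the zona genes Zp2 (2798.6 and 3002.6 in control, 2466.1 and 3388.9 with AMH) and Zp3 (2531.1 and 2133.5, then 2721.8 and 1977.8) overlapped between the groups. Red cell precursors are also known to take up glycine through GLYT1. Of 4 red blood cell markers with a probe set 2 were tested and 1 was lower (Hbb), and their summed intensity was 1440 and 1243 in control and 119 and 97.2 with AMH. Most of this sum was Hbb, which read 1362.0 and 1166.8 in control and 89.4 and 55.3 with AMH. Alas2 did not pass (-0.86 ± 0.31), and its AMH mean of 20.05 lay below the filter level. Slc4a1 and Ahsp were too dim to be tested. Slc4a1 read lower and Ahsp higher on both AMH arrays. What part the content of oocytes or of red cells had in the fall of Slc6a9 was not tested.

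Slc6a4 encodes the serotonin transporter, which moves no amino acid. It read 248.1 and 228.1 in control and 166.9 and 129.8 with AMH. The fall of -0.64 ± 0.19 (1.55-fold) had a limma adjusted p of 0.0467 and kept its call in 5 of 14 alternatives. It was lost without control replicate 1 (0.278), without control replicate 2 (0.164) and without AMH replicate 2 (0.0864), as well as with quantile normalization (0.0558), median centring (0.0614) and 4 other settings, and its adjusted p ran from 0.00286 to 0.278 over all of them. Markers of nerve and glia gave no call on these arrays (0 of 2 tested, of 5 with a probe set). Their summed intensity was 623 and 394 in control and 270 and 445 with AMH, and their part in the fall of Slc6a4 was not tested.

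The other tested SLC6 genes did not pass at their brightest probe set. Slc6a6, the taurine transporter, read 397.3 and 272.8 in control and 553.7 and 375.8 with AMH, with overlapping groups and a difference of 0.45 ± 0.24 that passed without AMH replicate 2 (0.72, limma adjusted p = 0.0325). Its other probe set gave the opposite result: 160.4 and 113.4 in control against 40.7 and 15.7 with AMH, or -1.83 ± 0.32 (limma adjusted p = 0.0065). Slc6a8, the creatine transporter, agreed at both its probe sets (0.20 ± 0.22 and 0.26 ± 0.24). Slc6a7, the proline transporter, read 45.6 and 55.9 in control and 29.8 and 21.4 with AMH and gave -0.69 ± 0.26 (limma adjusted p = 0.093, and -1.07 with 0.0082 under hybridization control scaling). Its AMH mean of 25.6 lay below the filter level, and the difference was -0.36 with 64 added and -0.97 with 1 added. The neighbouring imino acid carrier genes Slc6a20b (268.4 and 216.1 in control, 213.4 and 133.1 with AMH) and Slc6a20a gave -0.47 ± 0.24 and -0.19 ± 0.23. A dimmer tested probe set of Slc6a20a gave -0.61 ± 0.26 (82.6 and 57.7 in control, 46.8 and 33.4 with AMH, limma adjusted p = 0.128). Slc6a20b passed without AMH replicate 1 (-0.79, limma adjusted p = 0.0195) and was -0.16 without AMH replicate 2. Slc6a3, the dopamine transporter, read 27.4 and 51.5 in control and 52.0 and 24.8 with AMH and gave -0.04 ± 0.34.

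**Figure D3:**
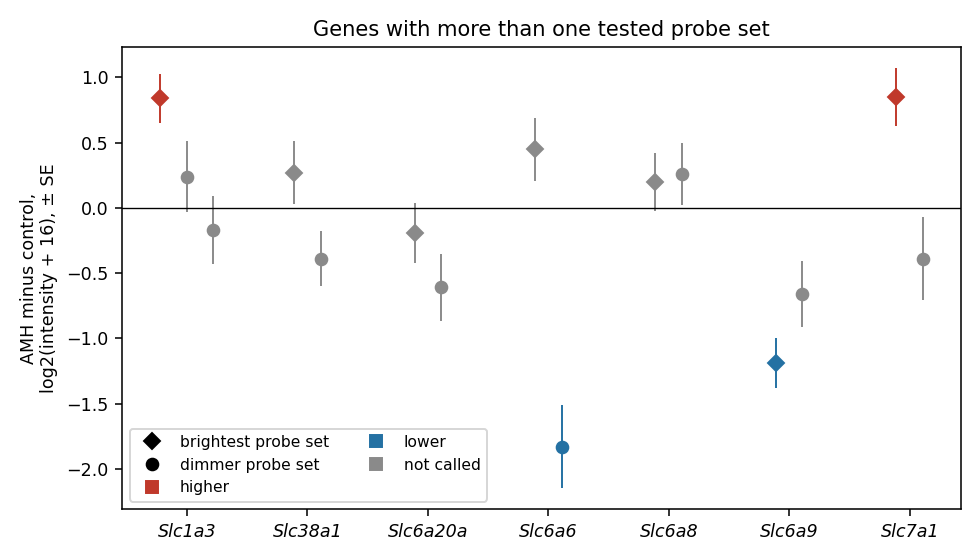
AMH minus control (log2(intensity + 16), ± SE of the limma fit, 2 arrays per group) at each tested probe set of the 7 genes that had more than 1, with diamonds for the brightest and circles for the dimmer ones. Signs differed within Slc1a3, Slc38a1, Slc6a6 and Slc7a1, and for Slc6a6 the probe sets lay 2.28 apart.

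Disagreement between probe sets of 1 gene was common. Of the 7 transporter genes with more than 1 tested probe set, 4 had differences of both signs, as did 56.5% of the 2609 genes on the array with more than 1. For Slc38a1 the brightest probe set gave 0.27 ± 0.24 and the other -0.39 ± 0.21 (90.4 and 100.7 in control, 76.8 and 61.4 with AMH). For beta-actin the 3′ over 5′ ratio was 3.17 and 4.6 in control and 10.7 and 14.4 with AMH. Its part in these disagreements was not tested.

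The smaller families gave no call. Both SLC43 genes, which encode sodium-independent carriers of leucine and other large neutral amino acids, were tested. Slc43a1, the gene of LAT3, read 59.2 and 71.6 in control and 101.6 and 78.7 with AMH and gave 0.38 ± 0.23 (limma adjusted p = 0.262). Slc43a2, the gene of LAT4, read 68.0 and 76.9 in control and 24.0 and 67.3 with AMH. At this probe set the difference of -0.61 ± 0.34 came from AMH replicate 1. It was -0.08 without that array and -1.14 without AMH replicate 2, and it passed with hybridization control scaling (-1.02). A dimmer probe set, not bright enough to be tested, was lower on both AMH arrays (32.9 and 29.3 in control, 25.6 and 20.8 with AMH). All 3 SLC36 genes, which encode proton-coupled carriers of the lysosome and cell surface and neighbour each other on chromosome 10, were below the filter. The highest reading was that of Slc36a2, at 20.2 and 16.3 in control and 13.3 and 17.6 with AMH.

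The remaining genes below the filter were Slc6a2, Slc6a5, Slc6a11, Slc6a13, Slc6a14, Slc6a15, Slc6a17 and Slc6a18 in SLC6 and Slc7a2, Slc7a4, Slc7a12, Slc7a13 and Slc7a14 in SLC7. Their array means lay at or below 19.93 in SLC6, and no single reading of an untested representative probe set exceeded 41.4. Among these, Slc6a14, a broad carrier of neutral and cationic amino acids, read 0.5 and 18.9 in control and 28.8 and 31.5 with AMH. No detection call was available for levels this low, and intensities of different probe sets do not order genes by transcript number.

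Genes that work with these carriers were read from lists of other amino acid genes. The shares of all tested genes, 11.1% higher and 11.9% lower, are the background for the counts of each list. Mfsd12, a lysosomal cysteine importer, was the 1 called of 15 tested carriers outside the 7 families (1.11 ± 0.24; 191.3 and 144.6 in control, 305.6 and 468.1 with AMH), a call lost without control replicate 2, and with hybridization control scaling 0 were higher and 4 lower. Of 25 tested genes of the ATF4 amino acid response, the pathway that induces Slc38a2 and Slc7a1 in starved cells, 4 were higher and 3 lower, with a median of 0.08 (1 and 10, and -0.42, with hybridization control scaling). Asns, the asparagine synthetase, rose by 1.42 ± 0.32 (from 53.0 and 119.6 to 203.9 and 287.9), a call lost without control replicate 1. Vldlr (1.12 ± 0.19), Herpud1 (1.06 ± 0.23) and Eif2ak4, the kinase GCN2 that senses uncharged tRNA (0.80 ± 0.23), were higher as well, of which Eif2ak4 kept its call in only 6 of 13 alternatives (adjusted p from 0.00861 to 0.423). Other tested probe sets of Vldlr gave 1.1 ± 0.19 and 0.76 ± 0.22, both past the threshold, and 0.4 ± 0.22, which did not pass. Sesn2 (-0.98 ± 0.21), Ddit4 (-0.79 ± 0.21) and Eif4ebp1 (-0.80 ± 0.16), which restrain mTORC1 or translation, were lower. Atf4 itself (-0.62 ± 0.23) and its targets Trib3 (-0.84) and Ddit3 (-0.62) did not pass. Without control replicate 1 the count was 1 higher and 1 lower, and without control replicate 2 it was 4 higher and 0 lower, and the calls of Sesn2, Ddit4 and Eif4ebp1 were lost without either control replicate. Without AMH replicate 2 it was 6 higher and 5 lower.

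Of 35 tested genes of the mTORC1 amino acid sensing machinery 8 were lower and 1 higher (beside 11.9% lower and 11.1% higher of all tested genes), with a median of -0.05, and 13 and 0 with hybridization control scaling. Of the 4 tested subunits of Ragulator, the lysosomal anchor of the Rag GTPases, 3 were lower and Lamtor3 did not pass (0.10 ± 0.15, groups overlapping). Lamtor4 fell by 1.98 ± 0.23 (356.3 and 335.1 in control, 96.3 and 59.3 with AMH), Lamtor2 by 0.92 ± 0.20 and Lamtor5 by 0.66 ± 0.15. Of the Rag GTPase genes Rragc was lower (-0.71 ± 0.16), while Rraga (0.43 ± 0.14, limma adjusted p = 0.0629) and Rragd (-0.17 ± 0.26) did not pass. Sec13 of the GATOR2 complex (-0.76 ± 0.14), Tbc1d7 of the TSC complex (-0.95 ± 0.21) and, from the list above, Sesn2 and Eif4ebp1 made up the rest. Seh1l, also of GATOR2, rose by 0.92 ± 0.14, with 0.45 ± 0.26 at its other probe set, which did not pass. Leaving out control replicate 1 left 1 lower and 1 higher, and leaving out control replicate 2 left 3 and 1; without either AMH replicate 3 were higher, with 9 lower without AMH replicate 1 and 10 without AMH replicate 2. Lamtor4 passed in all 13 alternatives run on the lists. Mtor (0.40 ± 0.23) and Rptor (-0.05 ± 0.20) did not pass.

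Of 35 tested enzymes of amino acid metabolism 3 were higher and 4 lower, beside 11.1% and 11.9% of all tested genes (1 and 9 with hybridization control scaling). The count was 1 and 2 without control replicate 1, 1 and 1 without control replicate 2, 6 and 4 without AMH replicate 1 and 4 and 6 without AMH replicate 2. Arg2, which splits arginine to ornithine, fell by 1.13 ± 0.20, the ornithine decarboxylase gene Odc1 by 0.84 ± 0.16 (1217.1 and 1326.9 in control, 638.6 and 775.2 with AMH) and the spermidine synthase gene Srm by 0.96 ± 0.20. Arg2 passed in all 13 alternatives, while the call of Srm was lost without either control replicate and that of Odc1 without control replicate 2. The spermine synthase gene Sms did not pass and lay on the other side (0.37 ± 0.17; 212.8 and 240.9 in control, 280.5 and 316.6 with AMH). The branched-chain transaminase gene Bcat1 rose by 1.25 ± 0.24, with -0.67 ± 0.29 at its other probe set, and Dbt (0.88 ± 0.26) and Got2 (0.60 ± 0.15, with 0.03 at another probe set) also rose, whereas Bckdhb fell (-0.68 ± 0.17). The call was lost in 6 of 13 alternatives for Dbt, in 4 for Got2, without control replicate 1 for Bcat1 and without either control replicate for Bckdhb. Of 14 tested genes of glutathione synthesis and cysteine supply 2 were higher and 2 lower (0 and 3 with hybridization control scaling, and 0 and 1 without control replicate 1, without control replicate 2 or with no filter). Without AMH replicate 1 they were 2 and 1, and without AMH replicate 2 they were 1 and 2. Gpx4, which uses glutathione to reduce lipid peroxides, fell by 1.54 ± 0.15 (1056.5 and 1080.1 in control, 365.0 and 346.4 with AMH) and passed in all 13 alternatives. Gsr, the glutathione reductase, fell by 0.94 ± 0.28 but passed in 4 of 10 alternatives, and its AMH mean of 15.95 lay below the filter level. Ggt5 (1.08 ± 0.28) and Chac2 (0.74 ± 0.20), which act in glutathione breakdown, rose, and the other probe set of Chac2 gave -0.17 ± 0.23. Each lost its call in 5 alternatives, of 12 for Ggt5 and 13 for Chac2, and Ggt5 was tested only through its AMH values, since its control mean of 18.25 lay below the filter level. The glutamate-cysteine ligase genes Gclc (0.32 ± 0.19) and Gclm (0.12 ± 0.16), whose enzyme uses cysteine made from the cystine that Slc7a11 brings in, did not pass.

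**Figure D4:**
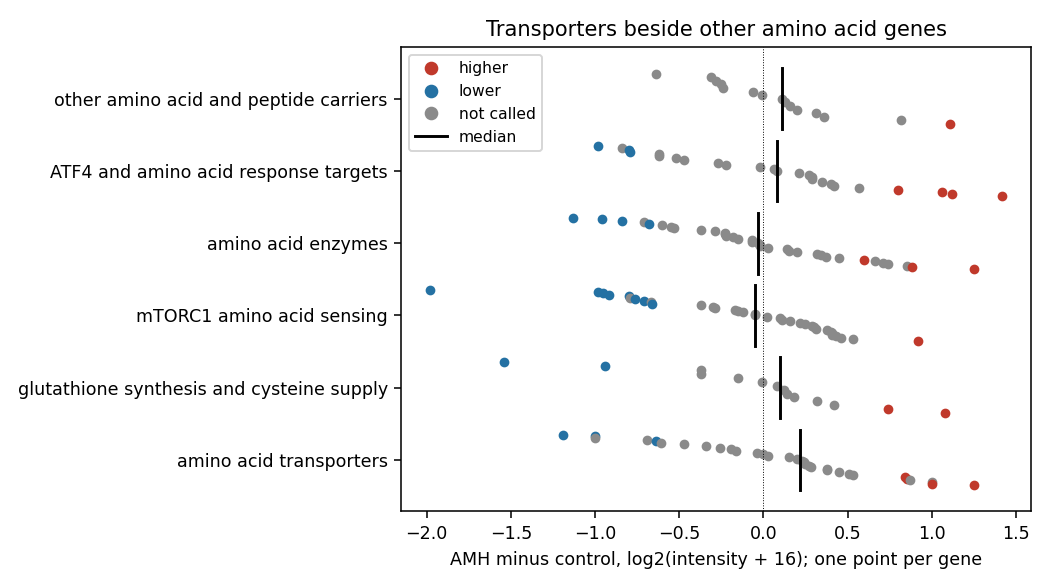
AMH minus control (log2(intensity + 16), horizontal axis) for each tested gene of 5 lists of amino acid genes and of the transporters, 1 point per gene, red where called higher, blue where called lower and grey where not called, with a bar at the median. Medians ran from -0.05 for mTORC1 amino acid sensing to 0.21 for the transporters, and called genes lay on both sides except among the other carriers.

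**Figure D5:**
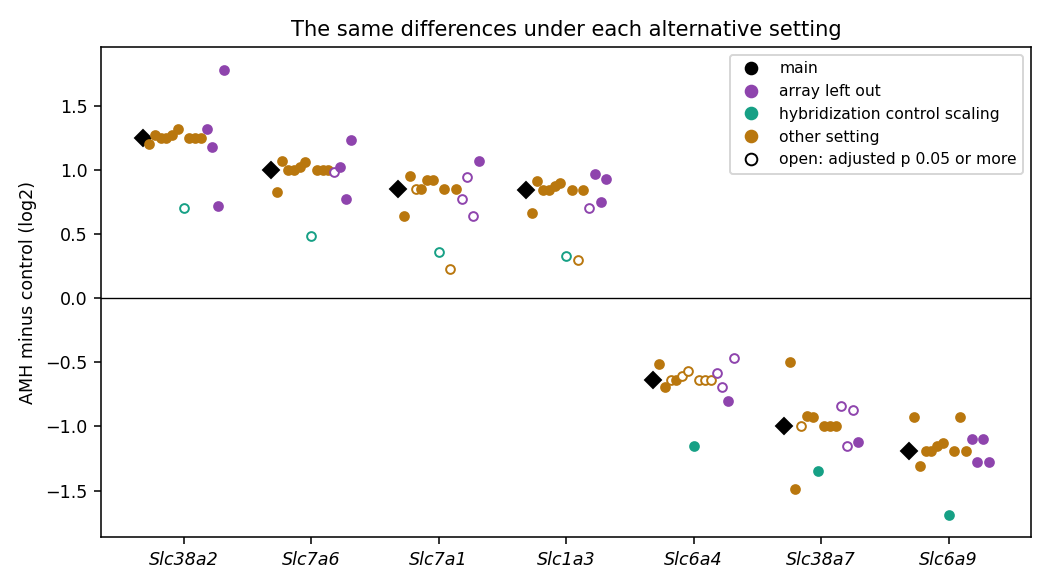
AMH minus control (log2) of the 7 called transporter genes under the reported fit (diamonds) and each alternative (circles), filled where the adjusted p was under 0.05. No gene changed sign, hybridization control scaling gave 0.70 or less for the 4 risers with none past the threshold, and Slc6a9 stayed filled throughout.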

How the data were processed

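The authors deposited 1 table of probe set intensity on a linear scale, 31099 probe sets by 4 arrays, from biotin-labelled total RNA on 1-colour Affymetrix arrays, per the labels. The labels do not name the summarising software. Values entered as log2(intensity + 16), which understates changes at dim probe sets. After removal of 57 AFFX controls, the dimmest 40 percent by mean log2 were filtered out (under 5.453, or an intensity of 27.8), and 18625 probe sets stayed. The test was limma 3.58.1 under R 4.3.3: lmFit followed by eBayes with trend, two-sided p, Benjamini-Hochberg over all of these, threshold 0.05. Residual degrees of freedom were 2 and prior ones 6.33. The script was tested on simulated data. The number of arrays limits the precision, and no permutation of 2 against 2 arrays can reach the threshold.

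Genes were named from the platform annotation, with 1 symbol for 20832 probe sets, several for 436 and none listed for 9831. All 53 members matched a RefSeq gene of GRCr8 under the same symbol. Every member is accounted for. Values on every array are given for the called transporters, the brightest of each family and the SLC3 and SLC7 partners. Of the other lists the called genes or those at the extremes are named, many of them with the difference only. Genes named beyond this rule (Zp2, Zp3, Mtor, Rptor, Rraga, Rragd, Lamtor3, Sms, Gclc, Gclm, Atf4, Trib3, Ddit3 and single members with array values) were chosen after their values were seen. The members and lists were chosen with earlier results of these data known. Alternatives changed the constant, filter, scaling, variance model, probe set rule and arrays used. Replicate numbers did not pair the arrays (correlation of deviations -0.000816), so no block was used. Promoters came from RefSeq (GRCr8).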

Additional observations from a re-analysis of the deposited data

How the results depend on the processing

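The reported fit gave 4 transporter genes higher, 3 lower and a median of 0.21. Hybridization control scaling gave 0 higher, 7 lower and a median of -0.29. With no filter 1 was lower, and with the mean over probe sets of a gene 2 were higher. Leaving out 1 array gave 2 to 8 higher, 1 to 4 lower and a median from 0.03 to 0.26; the low end for higher calls was without control replicate 1 and the high end without AMH replicate 2, and a lone array was assumed to vary like the other group. Over all tested probe sets 7.41% were called without control replicate 1, 10.1% without control replicate 2 and 27.5% without either AMH replicate, against 21.5%. With the replicate number as a replicate block 5 were higher (Slc7a3 added) and 2 lower (Slc6a4 lost). The other settings stayed within 1.5 times these counts, and no called transporter changed sign in any alternative. Over all tested probe sets 59.6% of calls were lower, against 50.5% with median centring and 98.0% with hybridization control scaling, 68.3% without an intensity trend, 75.8% without control replicate 1. Where the cause of a change is not given, it was not tested.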
